A study of Homo sapiens with 24 samples.

Results

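The 48 genes described here carry cells from G2 through mitosis to cytokinesis. They were taken from a fixed list of names and not by a filter on measured values, but the list was chosen with earlier results of these data known. Each gene was read from 1 transcript cluster, the set of array probes that measures 1 transcribed locus, and where a gene had several clusters the one with the highest mean over the 24 arrays was used. Of the 48 genes, 47 had a cluster that the platform annotation ties to a single gene symbol, among 18417 genes so covered. CENPA, the centromeric histone, was read only by a cluster with several symbols and was not used. All 47 genes reached 6 on the log2 scale in more than 50% of the 12 arrays of each experiment, so the filter on low values removed none of them.

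The cells were L1236, an established Hodgkin lymphoma (HL) line, which is a single line and therefore 1 model of the disease. Constitutive NF-κB activity was lowered by RNA interference in 2 separate experiments. In the first, NFKB1 and RELA, which encode p50 and RelA of the canonical pathway, were knocked down together. In the second, NFKB2 and RELB, which encode p52 and RelB of the non-canonical pathway, were knocked down together. Each experiment held 6 knockdown (KD) arrays and 6 control arrays treated with non-targeting siRNA, from 3 replicates with 2 siRNA sequences per arm. The siRNAs were passively taken up at 1 µM over 3 days for NFKB1 and RELB and at 500 nM over 2 days for RELA and NFKB2, and normal culture conditions were restored for 1 day before harvest. Both arms of an experiment therefore shared the delivery medium and the low serum of the siRNA period. RNA was hybridised to Affymetrix Human Gene 1.0 ST arrays, and the values were RMA expression values on the log2 scale. Per the study's methods the 3 replicates of an experiment were biological, and each held 2 control and 2 KD arrays. The 6 arrays of an arm therefore came from 3 biological replicates, and the p-values below measure the spread between arrays within replicates. Sequence numbers name unrelated siRNAs in the 2 arms, so each KD array was set against both control arrays of its replicate, which gives 12 combinations in each experiment. The combinations share arrays and come from 3 replicates, so they are not 12 independent comparisons. Their counts are descriptions, and the share of all clusters with 12 of 12 was not counted.

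As background, entry into mitosis is driven by CDK1 bound to B-type cyclins, which CDC25 phosphatases activate and PLK1 promotes. The kinetochore then ties chromosomes to spindle microtubules, the spindle checkpoint holds the anaphase-promoting complex until all chromosomes are attached, and that complex, with CDC20 and UBE2C, ends mitosis by marking cyclin B and securin for destruction. Most of these genes are silent in quiescent cells and rise together in G2, when FOXM1 and MYBL2 (B-Myb) act with the MuvB core at promoters that often carry a CHR element and CCAAT boxes. In bulk RNA, fewer cells in G2 or mitosis and less of these transcripts per cell cannot be told apart.

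The promoters of these genes shared sequence features that the gene list did not use. RefSeq promoter windows (GRCh38.p14, 250 bases before to 50 bases after the first listed start of each gene) were found for 41 of the 48 genes. FOXM1, BUB3, TTK, AURKA, BIRC5, TPX2 and UBE2C had no window in that table. A CHR element, searched as TTTGAA or TTCGAA on both strands, was present in 27 of the 41 windows (65.9%), beside 16.6% of all 27305 windows. At least 2 CCAAT boxes, also searched on both strands, were present in 20 of the 41 windows (48.8%), beside 11.3% of all windows. Both a CHR element and at least 2 CCAAT boxes were present in 15 of the 41 (36.6%), beside 1.98% of all windows, and in 1 member the letters of the 2 motifs overlapped. The NF-kB consensus site was found in 1 of the 41 windows, that of NCAPG (2.44%), beside 5.72% of all windows. A match is a description of letters and not an occupied site.

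The 150 bases before the start are shown for 3 members called after p52/RelB KD and for PLK1 and CDC20, which stand for mitotic entry and exit. Letters in capitals are CHR and CCAAT matches on either strand. The CCNB2 window (chr15:59104996-59105145, plus strand) carried 3 CCAAT boxes and a CHR element that began 29 bases before the start. The KIF4A window (chrX:70289954-70290103, plus strand) carried 1 of each. The NCAPH window (chr2:96335616-96335765, plus strand) carried 1 CCAAT box and no CHR element. The PLK1 window (chr16:23678739-23678888, plus strand) had its CHR element 29 bases before the start, and the CDC20 window (chr1:43358831-43358980, plus strand) had it 65 bases before the start.
CCNB2: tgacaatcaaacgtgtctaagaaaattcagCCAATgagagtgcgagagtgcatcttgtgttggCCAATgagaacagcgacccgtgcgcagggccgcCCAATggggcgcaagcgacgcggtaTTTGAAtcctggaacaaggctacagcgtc
KIF4A: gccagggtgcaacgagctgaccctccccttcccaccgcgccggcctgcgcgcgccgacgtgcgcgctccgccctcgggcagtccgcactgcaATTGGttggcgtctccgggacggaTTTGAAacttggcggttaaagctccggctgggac
NCAPH: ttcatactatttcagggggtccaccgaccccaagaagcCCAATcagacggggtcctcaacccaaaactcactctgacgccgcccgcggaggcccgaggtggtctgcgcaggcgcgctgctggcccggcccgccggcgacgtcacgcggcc
PLK1: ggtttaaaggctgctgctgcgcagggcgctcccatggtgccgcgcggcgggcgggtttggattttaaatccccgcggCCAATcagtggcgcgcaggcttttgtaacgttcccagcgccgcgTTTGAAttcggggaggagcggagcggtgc
CDC20: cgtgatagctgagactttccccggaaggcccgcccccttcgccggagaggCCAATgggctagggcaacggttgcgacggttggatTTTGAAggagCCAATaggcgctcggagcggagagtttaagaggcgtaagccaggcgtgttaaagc

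Before the members, the targets and the arrays were checked. After p50/RelA KD, NFKB1 was at 26.5% and RELA at 38.1% of control. After p52/RelB KD, NFKB2 was at 39.4% and RELB at 82.0% of control (limma, adjusted p = 0.0022 for RELB). All 8 Hodgkin cell markers were above the low value limit in both experiments, as were 6 of the 7 B cell markers read, with MS4A1 below it. Of the T and NK cell markers 2 of 7 were above the limit in the first experiment and 6 of 7 in the second, with CD3G below it in both. Of the myeloid markers 1 of 6 and 3 of 6 were above the limit, and of the stromal and epithelial markers 5 of 7 and 6 of 7, with PECAM1 at a mean of 12.3 on the control arrays of the first experiment. Arrays of the second experiment had higher medians. The experiments were treated as normalized apart, so levels were not compared between them. In the second experiment the KD array of siRNA sequence 2, replicate 3, stood apart. The middle 50% of its clusters spanned 2.56 and its median was 8.0. On the other 11 arrays that span was between 2.82 and 2.95, with medians between 7.94 and 7.97. Counts and named members after p52/RelB KD are given on all arrays first and without this array further on. In the first experiment the control array of sequence 2, replicate 2, stood apart less. Without it 0 members were called, beside 1.32% of all clusters, and 22 members were at unadjusted p below 0.05 by limma.

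After p50/RelA KD, 45 of the 47 members were above their control mean, beside 50.7% of all clusters. The amounts were small, and no single member passed the test. The median difference was 0.076 on the log2 scale, beside 0.001 over all clusters tested. A gene was called where its limma adjusted p was below 0.05 over all 14672 clusters tested and its difference was at least 10%. By that rule 0 of the 47 members were called, beside 1.07% of all clusters. At unadjusted p below 0.05 there were 14 members, beside 10.5% of all clusters. The 2-sample test of the study's methods called 0 as well. That stood beside 0.204% of all clusters on values as deposited and 1.88% on values adjusted for replicate.

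NDC80, SPC24, CENPI, NUF2 and SPC25 of the kinetochore, which binds microtubules, were 5 of the 8 members with the smallest p after p50/RelA KD. All 7 measured kinetochore genes were above control, with a median of 0.14, and 5 of the 7 had an unadjusted p below 0.05. NDC80, which encodes the main microtubule-binding subunit, ran from 8.79 over a median of 8.97 to 9.14 on control arrays and from 9.01 over 9.08 to 9.36 on KD arrays. The 2 groups overlapped, and NDC80 was higher on the KD array in 12 of 12 combinations within replicates. Its difference was 0.20 ± 0.05 (SE), with an adjusted p of 0.082. SPC24 (0.18 ± 0.05, adjusted p = 0.15) and SPC25 (0.17 ± 0.07, adjusted p = 0.35) together encode the end of the NDC80 complex that faces the inner kinetochore, and NUF2 (0.11 ± 0.04, adjusted p = 0.34) is the partner of NDC80. CENPI, of the inner kinetochore, differed by 0.14 ± 0.04 (adjusted p = 0.23) and was higher in 12 of 12 combinations, whereas the motor CENPE differed by 0.05 ± 0.06.

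The other 3 of these 8 members were NCAPH, CDC20 and ASPM. NCAPH, a condensin subunit that compacts chromosomes, differed by 0.16 ± 0.05 (adjusted p = 0.14), CDC20 by 0.16 ± 0.05 (adjusted p = 0.16), and ASPM, a spindle pole protein, by 0.13 ± 0.04 (adjusted p = 0.27). NCAPH was higher in 12 of 12 combinations, and ASPM and CDC20 in 11 of 12 each. The 5 cytokinesis genes were all above control, with a median of 0.11, led by PRC1, which bundles the central spindle, at 0.14 ± 0.07. TOP2A, which untangles DNA, differed by 0.10 ± 0.04 (adjusted p = 0.41).

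The 8 regulators of mitotic entry had a median of 0.057 after p50/RelA KD, beside 0.060 for the 9 spindle genes and 0.039 for the 3 anaphase genes, and 0 of the 8 had an unadjusted p below 0.05 by limma. CCNB1 (cyclin B1) differed by 0.10 ± 0.06, PLK1 by 0.057 ± 0.045 and CDK1 by 0.017 ± 0.068. CCNB2 (cyclin B2) at -0.023 ± 0.046 and the checkpoint protein MAD2L1 at -0.042 ± 0.062 were the 2 members below control. FOXM1 at 0.004 ± 0.051 and MYBL2 at 0.008 ± 0.034 were closest to no difference. BUB1, a checkpoint kinase, differed by 0.088 ± 0.038. Among the Aurora kinases and the passenger complex that corrects attachments, AURKA differed by 0.10 ± 0.04, AURKB by 0.072 ± 0.056 and BIRC5 (survivin) by 0.046 ± 0.039.

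**Figure D1:**
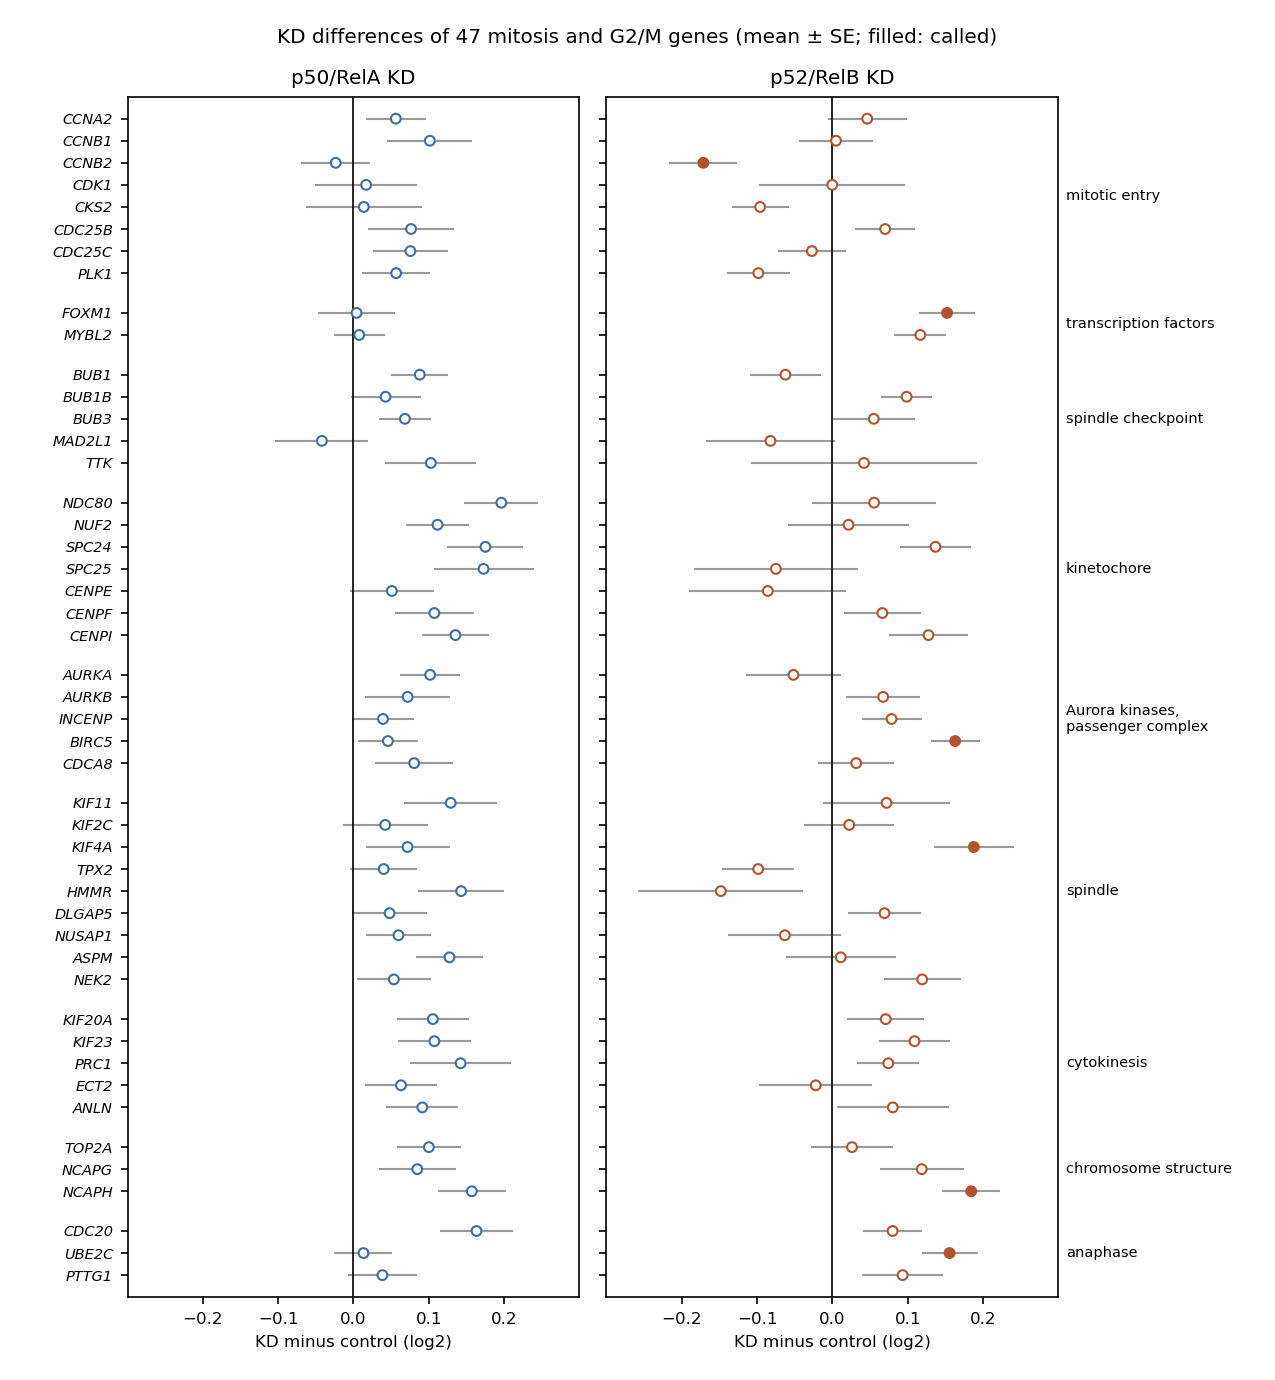
KD minus control (x axis, log2) for the 47 members after p50/RelA KD (left) and p52/RelB KD (right), grouped by role. Points are limma estimates with bars of ± 1 SE and filled points are called members, of which there were 0 on the left and 6 on the right.

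The size of the shift after p50/RelA KD differed with the control array used. Against 1 control array of each replicate (sequence 2 in replicates 1 and 3, sequence 1 in replicate 2) the median over the members was 0.13 to 0.17, with 41 to 47 of the 47 members higher. Against the other control array it was -0.020 to 0.046, with 20 to 33 members higher. Without the control array of sequence 2, replicate 1, the median of the fitted differences was 0.050. Averaged over both sequences the medians were 0.061, 0.071 and 0.076 in replicates 1, 2 and 3, each of which was scanned on a day of its own. The mean over all members was 9.89 ± 0.096 on control arrays and 9.97 ± 0.060 on KD arrays (SD, n = 6), and the 2 groups overlapped.

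After p52/RelB KD a few members rose and cyclin B2 fell, each by less than 15%. Of the 47 members 6 were called (12.8%), beside 9.68% of all 16101 clusters tested. The 5 called higher stood beside 3.93% of all clusters, and the 1 called lower beside 5.75%. The median over the members was 0.055, beside 0.019 over all clusters. Above control were 33 members and below it 14, where 58.1% of all clusters were above. Survivin, the condensin subunit NCAPH, the ubiquitin-conjugating enzyme UBE2C, the transcription factor FOXM1 and the chromosome motor KIF4A were the members that rose.

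BIRC5 encodes survivin, which places the passenger complex at centromeres and also restrains cell death. It ran from 8.45 over a median of 8.55 to 8.66 on control arrays and from 8.60 over 8.72 to 8.81 on KD arrays. The groups overlapped between replicates, but the KD array was higher in 12 of 12 combinations within replicates, by 0.081 to 0.25. The difference was 0.16 ± 0.03 (112% of control, adjusted p = 0.0071), and BIRC5 was called in all 12 fits that each left out 1 array. It also had a second cluster, close to the low value limit, and with both clusters averaged BIRC5 was not called (0.11, adjusted p = 0.16).

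NCAPH ran from 10.95 over 11.12 to 11.22 on control arrays and from 11.11 over 11.29 to 11.43 on KD arrays. The groups overlapped, and it was higher on the KD array in 12 of 12 combinations, by 0.042 to 0.28. The difference was 0.18 ± 0.04 (13.6% higher, adjusted p = 0.0097), and NCAPH was called in all 12 fits that each left out 1 array. The other condensin member, NCAPG, differed by 0.12 ± 0.06 and was not called.

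UBE2C, which starts ubiquitin chains on cyclin B and securin, ran from 9.39 over 9.49 to 9.67 on control arrays and from 9.54 over 9.62 to 9.87 on KD arrays. It was higher in 12 of 12 combinations although the groups overlapped, and the difference was 0.16 ± 0.04 (11.4% higher, adjusted p = 0.019). The other anaphase genes did not pass, CDC20 at 0.080 ± 0.039 (adjusted p = 0.25) and PTTG1 (securin) at 0.093 ± 0.054. UBE2C lost its call in 3 of the 12 fits that left out 1 array.

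FOXM1, the forkhead factor that drives many G2 genes, was the one called member whose groups did not overlap. Its control arrays ran from 10.24 over 10.33 to 10.42 and its KD arrays from 10.43 over 10.49 to 10.55. The difference was 0.15 ± 0.04 (11.1% higher, adjusted p = 0.023), with 12 of 12 combinations higher. MYBL2, which binds the MuvB core, differed by 0.12 ± 0.03 (adjusted p = 0.051), was higher in 12 of 12 combinations and was not called.

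KIF4A, a chromosome-bound motor that shapes the central spindle, ran from 8.95 over 9.16 to 9.39 on control arrays and from 9.22 over 9.37 to 9.52 on KD arrays. It was higher in 12 of 12 combinations although the groups overlapped, by 0.068 to 0.44, and the difference was 0.19 ± 0.05 (13.9% higher, adjusted p = 0.044). KIF4A was called in only 3 of the 12 fits that left out 1 array, and FOXM1 and CCNB2 in 5 of the 12 each.

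CCNB2 went the other way. It ran from 10.66 over 10.77 to 11.20 on control arrays and from 10.47 over 10.65 to 11.03 on KD arrays, so the groups overlapped, and both arms read higher in replicate 3. The KD array was lower in 12 of 12 combinations. CCNB2 fell by 0.17 on the log2 scale (SE 0.05, adjusted p = 0.031), to 88.8% of control. Its fellow entry genes did not follow it to a call. CCNB1 differed by 0.0049 ± 0.0498, CDK1 by -0.00013 ± 0.097 (95% interval -0.21 to 0.21), PLK1 by -0.098 ± 0.042 (adjusted p = 0.18) and CKS2, a CDK1 subunit, by -0.096 ± 0.038 (adjusted p = 0.15). CKS2 was also lower in 12 of 12 combinations and PLK1 in 10, while CDK1 was higher in 9 and CCNB1 in 8.

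**Figure D2:**
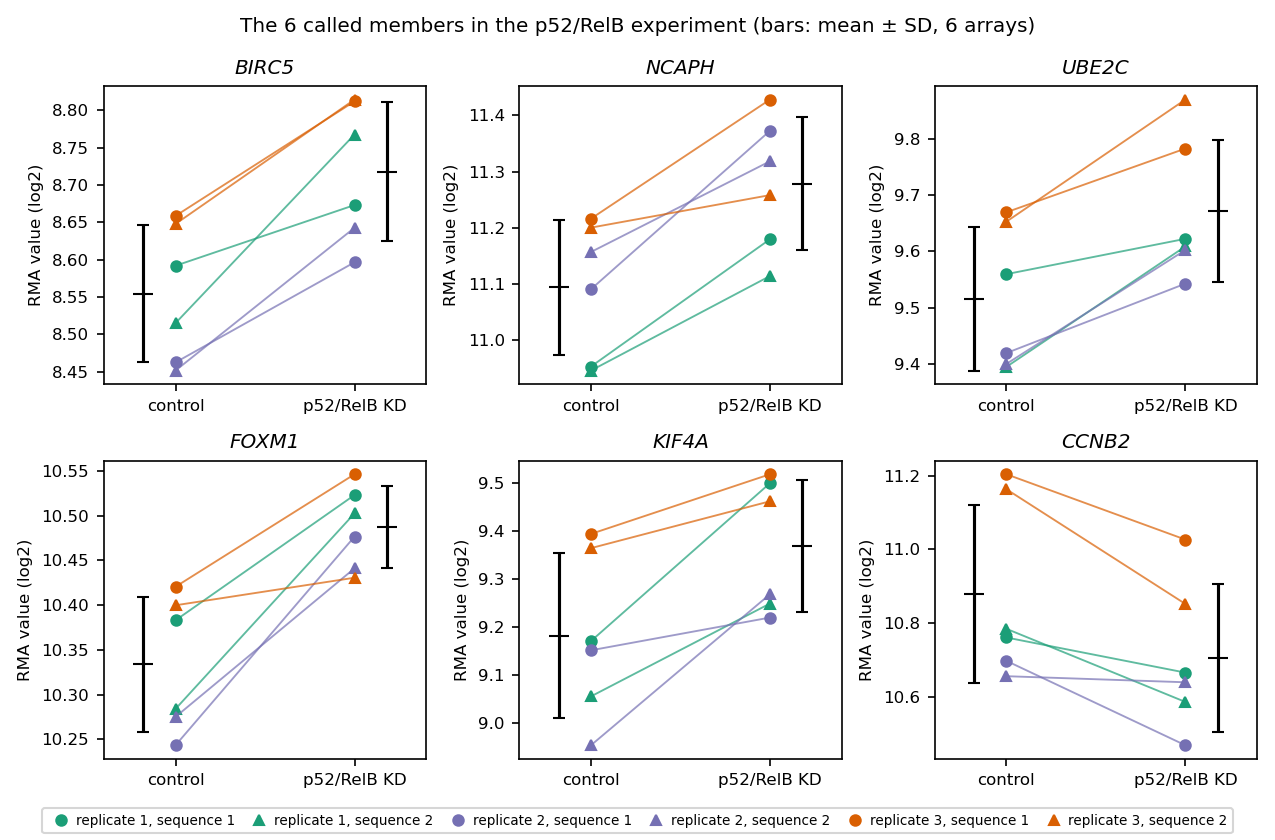
RMA values (y axis, log2, a scale of its own in each panel) of the 6 called members on the 12 arrays of the p52/RelB experiment, with lines joining control and KD arrays of the same replicate and sequence number and bars for the mean ± SD of 6 arrays. Sequence numbers name unrelated siRNAs, so only the replicate ties the ends of a line. The first 5 genes rise along all 6 lines and CCNB2 falls along all 6.

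No member of the spindle checkpoint, kinetochore or cytokinesis groups was called after p52/RelB KD. At unadjusted p below 0.05 by limma there were 1 of 5, 2 of 7 and 1 of 5, beside 22.8% of all clusters. BUB1B, the checkpoint protein BubR1, differed by 0.099 ± 0.034 (adjusted p = 0.091) and was higher in 12 of 12 combinations, while BUB1 differed by -0.062 ± 0.047. In the kinetochore NDC80 differed by 0.055 ± 0.082, SPC24 by 0.14 ± 0.05, CENPI by 0.13 ± 0.05 and CENPE by -0.086 ± 0.104. AURKA differed by -0.052 ± 0.063, AURKB by 0.068 ± 0.049 and TOP2A by 0.026 ± 0.054. HMMR, a spindle protein, was the member furthest below control after CCNB2, at -0.15 ± 0.11.

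The fit took replicate number as a block, and both that block and single replicates set these counts. Without the block 0 members were called after p52/RelB KD, beside 5.47% of all clusters. With replicate 1 or with replicate 2 left out the count was also 0, beside 2.76% and 2.9% of all clusters, and the median over the members was 0.019 and 0.017. With the 2 siRNA sequences averaged within each replicate it was 0, beside 3.93% of all clusters. Sequence 1 alone called 2 members, NCAPH and TTK, beside 7.32% of all clusters. By the 2-sample test of the study's methods on the values as deposited it was 1, FOXM1, beside 4.5%. The share of all clusters called was thus lower than 9.68% in each of these fits as well.

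Replicate 3 read differently from the others in the p52/RelB experiment. Averaged over both sequences, the median over the members was 0.099 in replicate 1 and 0.12 in replicate 2, and -0.091 in replicate 3, where 14 of 47 members were higher. The 2 KD arrays of replicate 3 were unlike each other. The array that stood apart had 12 of 47 members higher against either control array, with medians of -0.21 and -0.17. The KD array of sequence 1 had 23 and 34 members higher, with medians of -0.0059 and 0.055. In the 8 combinations of replicates 1 and 2 the median ran from 0.079 to 0.14, and 35 to 42 members were higher. On the array that stood apart the checkpoint kinase TTK was 0.81 lower than on the control array of the same sequence number, HMMR 0.68 lower, CENPE 0.68 lower, SPC25 0.67 lower, CDK1 0.53 lower and MAD2L1 0.50 lower. AURKB at 0.25, UBE2C at 0.22 and BIRC5 at 0.17 were higher on it. The median of all clusters between these 2 arrays was 0.024. Whether the narrower spread of that array had a part in these values was not tested. After further quantile normalization of all 12 arrays, which gives them 1 spread, 8 members were called (17%, beside 10.3% of all clusters). The median over the members was then 0.067.

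**Figure D3:**
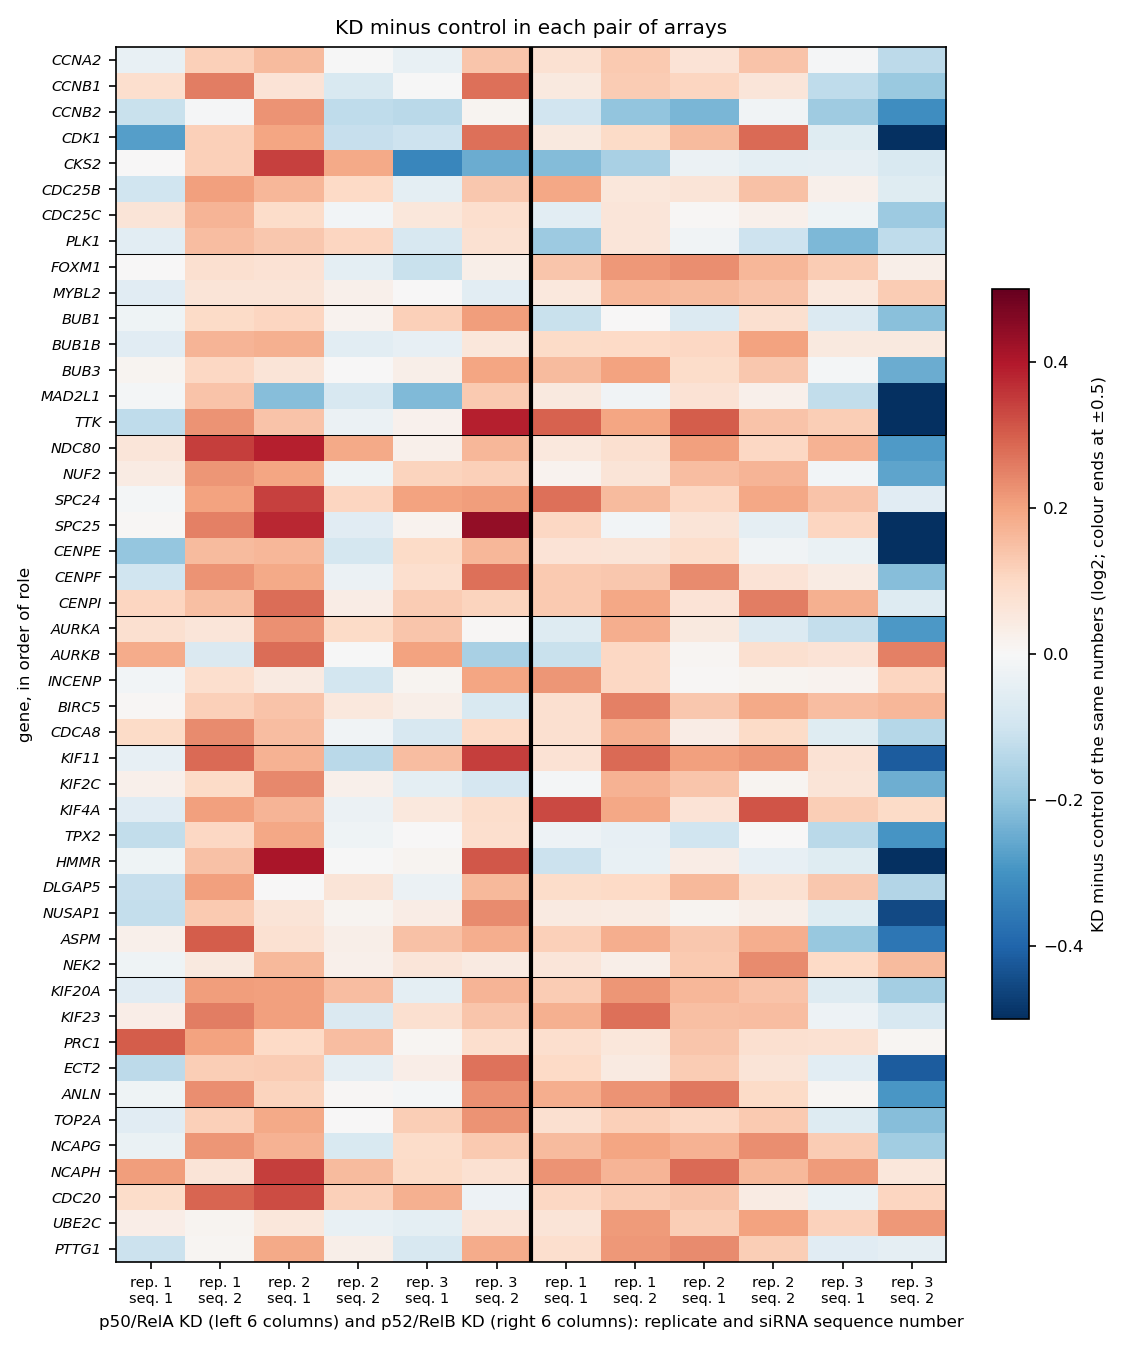
KD minus control (colour, log2, ending at ± 0.5) for each of the 47 members (rows, by role) in each of the 12 pairs of arrays matched by replicate and sequence number (columns). The match of sequence numbers is nominal, since they name unrelated siRNAs in the 2 arms. The last column, p52/RelB KD replicate 3 sequence 2, is the one where most members are lower (35 of 47).

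Without that array, 14 of the 47 members were called after p52/RelB KD (29.8%), beside 14.4% of all clusters, 13 higher and 1 lower. The median over the members was 0.097 and 41 of the 47 were above control. The 6 members called on all arrays were among the 14, with BIRC5 at 0.16, NCAPH at 0.21, UBE2C at 0.14, FOXM1 at 0.18, KIF4A at 0.20 and CCNB2 at -0.14. The 8 added members were TTK (0.22, adjusted p = 0.0011), NCAPG (0.17), SPC24 (0.18), CENPI (0.17), ANLN (0.16), the spindle motor KIF11 (0.16), NDC80 (0.14) and KIF23 (0.14), a motor of the central spindle. ANLN, anillin, links that structure to the contractile ring. MYBL2 at 0.12 (adjusted p = 0.016) and BUB1B at 0.11 (adjusted p = 0.022) passed the adjusted p but not the minimum of 10%. HMMR was at -0.023, CENPE at 0.034, AURKA at 0.0020, AURKB at 0.036, TOP2A at 0.076, CDC20 at 0.077, PLK1 at -0.092 and BUB1 at -0.029, of which CENPE and AURKA had changed sign. CDK1 was at 0.11 (adjusted p = 0.093) and the entry group as a whole at a median of 0.027, with CCNB2 its 1 call.

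Each of the other 11 arrays of that experiment, left out alone, left between 2 and 5 members called, beside 7.04% to 10.4% of all clusters. The count was 2 without the control array of sequence 2, replicate 1 (4.26%, beside 7.04%). It was 3 (6.38%, beside 7.29% to 7.78%) without the control array of sequence 2, replicate 3, without the KD array of sequence 1, replicate 2, or without the KD array of sequence 2, replicate 2. Replicates 1 and 2 alone, which were scanned on the same day, called 17 members (36.2%), beside 12.7% of all clusters, all of them higher. CDK1 was among the 17 (0.15, adjusted p = 0.046), and CCNB2 at -0.13 was not (adjusted p = 0.065). Replicate 3 alone, scanned on another day, called 0 members and 0 of all clusters by limma, with 0 of 47 members at unadjusted p below 0.05.

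**Figure D4:**
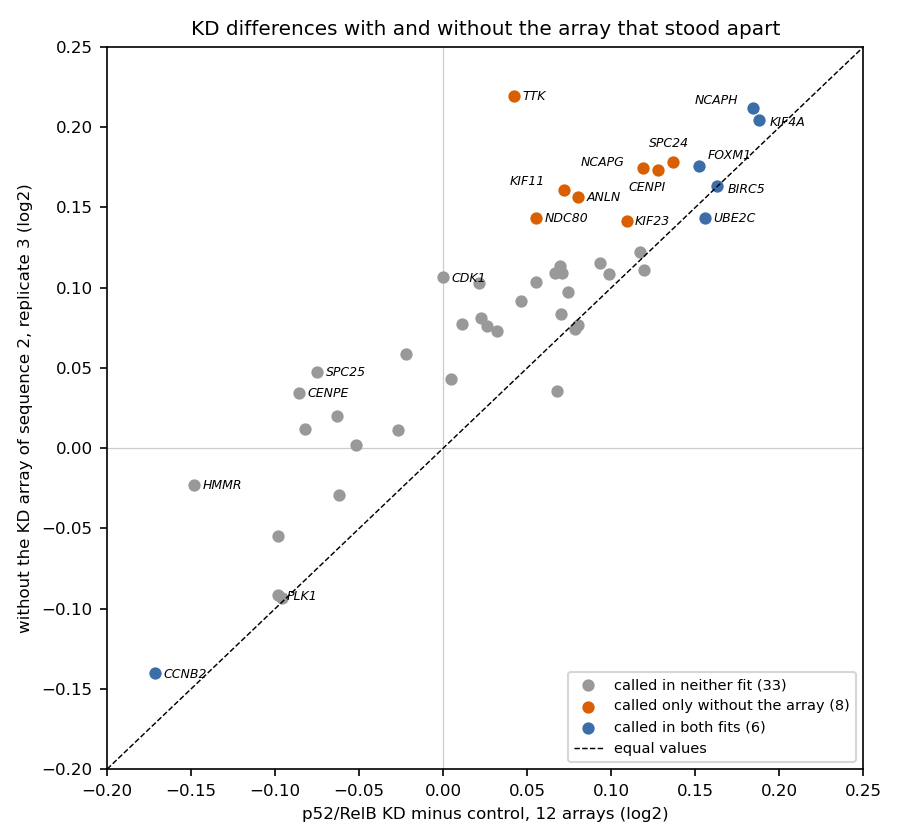
p52/RelB KD minus control (log2) of the 47 members with all 12 arrays (x axis) and without the KD array of sequence 2, replicate 3 (y axis), with a dashed line for equal values. The 6 members called in both fits stay near the line, and 8 more are called only without the array.

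**Figure D5:**
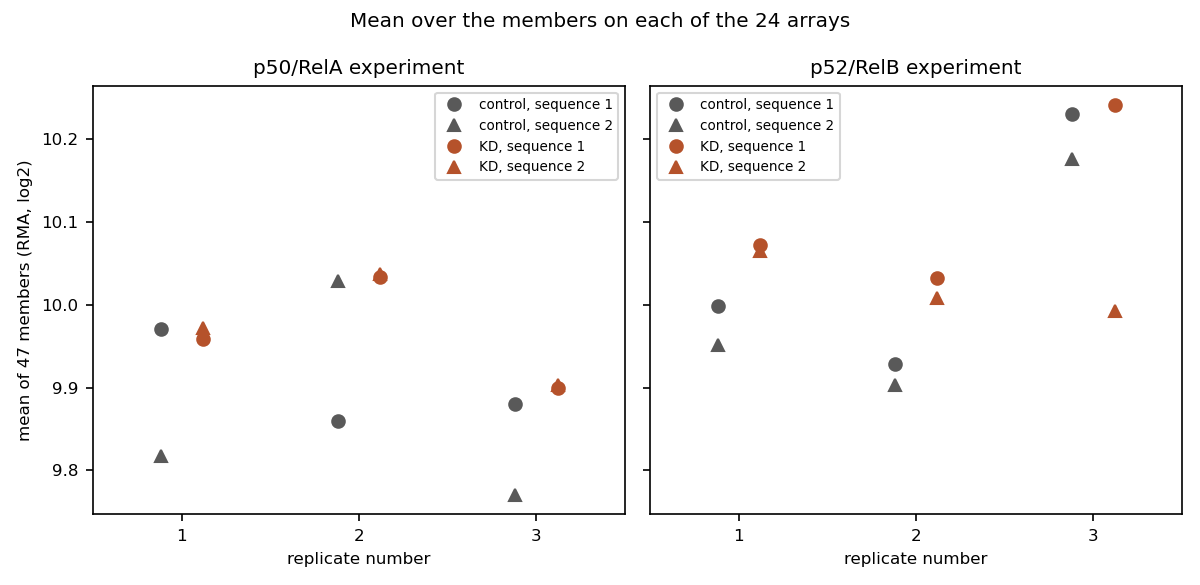
Mean of the 47 members (y axis, RMA, log2) on each of the 24 arrays by replicate number (x axis), with controls in grey and KD arrays in orange and with siRNA sequence as the symbol. In the p52/RelB experiment both KD arrays lie above both controls in replicates 1 and 2, and in replicate 3 the KD array of sequence 2 (9.99) lies below its control (10.18).

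The 2 KD effects were then set against each other in a model of all 24 arrays. No member was called different between them, beside 4.35% of all 14647 clusters. At unadjusted p below 0.05 by limma there were 9 members, beside 16.7% of all clusters. The 5 of smallest p were UBE2C (p52/RelB effect 0.14 greater, SE 0.05, adjusted p = 0.12), PLK1 (-0.15, adjusted p = 0.17), BUB1 (-0.15, adjusted p = 0.18), MYBL2 (0.11, adjusted p = 0.18) and BIRC5 (0.12, adjusted p = 0.19). FOXM1, at 0.004 after p50/RelA KD and 0.15 after p52/RelB KD, gave a difference of 0.15 with an adjusted p of 0.22. CCNB2 gave -0.15 (adjusted p = 0.23). That a member was called after p52/RelB KD and not after p50/RelA KD is therefore not a shown difference between the KDs. The estimate was negative for 34 of the 47 members, with a median of -0.040, where 53.3% of all clusters were positive. Without the 2 arrays that stood apart it was negative for 26 members. Without both of those arrays the median was -0.013. Without replicate 3 of both experiments the estimate was negative for 16 members and the median was 0.040. Without only the KD array of sequence 2, replicate 3, of the p52/RelB experiment it was positive for 26, with a median of 0.0039. Leaving out any other single array kept the median negative. Leaving out that KD array was thus enough to turn the median, which then lay close to no difference.

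Other genes of the same processes were read from fixed lists. After p50/RelA KD 1 of 117 such genes was called (0.855%, beside 1.07% of all clusters). It was TFDP2, a partner of E2F factors, at 90.2% of control (limma, adjusted p = 0.042). After p52/RelB KD 10 of the 117 were called, 8 higher and 2 lower, with a median of 0.039 (8.55% called, beside 9.68% of all clusters). Of 31 other kinetochore and checkpoint genes 4 were called, all higher, with ZWINT at 0.17 (adjusted p = 0.0095) and TRIP13 at 0.19 (adjusted p = 0.015) first. Of 25 other spindle genes 3 were called, all higher, with TACC3 at 0.14 and KIFC1 at 0.18 first. Of 14 other entry genes PKMYT1, an inhibitory kinase of CDK1, was higher by 0.18 and ARPP19 fell by 0.18. Among 19 condensin and cohesin genes and 17 genes of the anaphase-promoting complex 0 were called. At unadjusted p below 0.05 by limma there were 4 and 2, beside 22.8% of all clusters. Among 11 genes of the MuvB, DREAM and E2F complexes TFDP2 alone was called, at 70.0% of control (adjusted p = 0.00015), and its difference between the KDs was called too (-0.37, adjusted p = 0.0015), as was that of LIN52 (-0.22, adjusted p = 0.0094). Without the array that stood apart 28 of the 117 genes were called after p52/RelB KD (23.9%, beside 14.4% of all clusters), 27 of them higher. Without the control array that stood apart in the first experiment TFDP2 was not called after p50/RelA KD. The count there was 0, beside 1.32% of all clusters (16 at unadjusted p below 0.05 by limma).

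DNA replication and S phase genes, the part of the cell cycle most like the members, were also read. After p52/RelB KD 6 of 48 were called (12.5%, beside 9.68% of all clusters), all higher, led by CDC45 (0.19) and E2F1 (0.18), with a median of 0.067. Without the array that stood apart 13 of the 48 were called, beside 14.4% of all clusters, and without replicate 3 20 of the 48, beside 12.7%, all of them higher. After p50/RelA KD 0 were called (1 at unadjusted p below 0.05 by limma, beside 10.5% of all clusters). The median was 0.014, beside 0.076 for the mitosis and G2/M genes. No test was made of one list against the other.

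The members moved together from array to array. After removing the arm and replicate means, the median correlation over 1081 pairs of members was 0.58 in the first experiment (12 arrays), beside 0.07 between members and all other clusters. In the second it was 0.63, beside -0.01, but without the array that stood apart it was 0.23 (11 arrays). In the first experiment it was 0.54 without the control array of sequence 2, replicate 2. These are descriptions of points that share arrays and RNA. AURKB had the lowest mean correlation with the other members in both experiments on all arrays (-0.09 and -0.32), and BUB1B (0.70) and ANLN (0.67) had the highest.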

How the data were processed

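The deposited values were RMA expression values on the log2 scale, which the authors made from Affymetrix Human Gene 1.0 ST arrays with background correction and quantile normalization in the Bioconductor package oligo (version not given in the sources used here). The table held 33297 transcript clusters on 24 arrays with no missing value. Array medians differed between the experiments, and each experiment was treated as a normalization of its own, with differences but not levels set side by side.

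Genes were named from the platform annotation, updated through RefSeq gene tables, and the 19460 clusters with 1 symbol were kept. Clusters at 6 or above in more than 50% of the 12 arrays of an experiment were tested with limma 3.58.1 in R 4.3.3 (lmFit and eBayes), with Benjamini-Hochberg adjustment over all clusters tested. Calls needed an adjusted p below 0.05 and a change of 10% or more (0.14 in log2), which are the limits in the study's methods. Those name no covariates. Replicate number was a block. Deviations of control and KD arrays of the same number from their group means correlated at 0.195 to 0.574 over all tested clusters, in each of the 3 replicates of both experiments, so the numbers were taken to pair the arrays. Scan days equalled the replicates in the first experiment, and in the second replicates 1 and 2 shared a day. The difference between KD effects was tested in 1 limma model of all 24 arrays in which every experiment kept its own replicate blocks. The scripts were tested on simulated data with known changes.

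The members and all gene lists were chosen with earlier results of these data known, so no p is given for a list. Named were 14 members fixed by name, the 8 members of smallest p in each KD (with all called members) and the 5 of smallest p in the test of the difference, and other pathway genes by at most 2 called genes a list. Members named beyond this rule (among them HMMR, TTK, NCAPG, CKS2, PRC1 and PTTG1) were chosen after their values were seen. Intervals and errors cover the spread between arrays. Alternatives left out the block, replicates, single arrays or the filter, or changed the normalization, the siRNA sequences used, the test or the clusters used.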

Additional observations from a re-analysis of the deposited data

Results flagged for a closer look

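In each group of 6 arrays the gap between the most extreme array and its neighbour was divided by the range of the group, and ratios above Dixon's critical value for groups of this size were singled out. The mean over the members and 23 named members were examined in 4 groups each, 96 in all, and 7 stood out. Chance singles out about 1 in 20 groups. In the p52/RelB KD group the array of sequence 1, replicate 3, was the highest for the mean over the members (0.678, at 10.24 against 10.07 for the next array), for NDC80 (0.717, at 9.74 against 9.32) and for NUF2 (0.763, at 9.88 against 9.51). In the same group the array of sequence 2, replicate 3, which stood apart, was the lowest for CDK1 (0.655, at 8.84 against 9.21) and for CENPE (0.731, at 9.07 against 9.57). These ratios pool the replicates, and replicate 3 read high on control arrays too. There the mean over the members was 10.23 and 10.18, beside 9.90 to 10.00 on the control arrays of replicates 1 and 2. NDC80 was at 9.57 and 9.43, beside 9.07 to 9.27, and NUF2 at 9.89 and 9.66, beside 9.25 to 9.49. In the first experiment the control array of sequence 1, replicate 3, was the lowest for AURKB (0.663, at 9.97 against 10.16), and the p50/RelA KD array of sequence 1, replicate 2, was the highest for SPC25 (0.683, at 8.61 against 8.44).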

How the results depend on the processing

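After p50/RelA KD 0 members were called under each alternative except further quantile normalization, which called 1 (NDC80, adjusted p = 0.044, limma). That 1 call stood beside 1.55% of all clusters. The counts of 0 stood beside 0.0204% (sequence 2 alone) to 1.88% (the study's 2-sample test on values adjusted for replicate). The median over the members stayed above 0 throughout, at 0.084 after that normalization, 0.055 with siRNA sequence 1 alone, 0.10 with sequence 2 alone, 0.10 without the control array that stood apart, 0.072 to 0.082 leaving out each replicate and 0.050 to 0.10 leaving out each array. After p52/RelB KD, where 6 members were called, the fit with no replicate block called 0, as did averaged siRNA sequences and sequence 2 alone. Those counts of 0 stood beside 5.47%, 3.93% and 0.0311% of all clusters, so sequence 2 alone called almost nothing anywhere. Sequence 1 alone called 2 and the study's 2-sample test on values as deposited 1. On values adjusted for replicate that test called 6, beside 11% of all clusters. The fit without the array that stood apart called 14. Leaving out each replicate gave 0 to 17 and leaving out each array 2 to 14. The scan day as a block called 4, no filter 5 and no minimum difference 6, beside 8.78%, 7.37% and 10.3% of all clusters. The median was 0.017 to 0.11 leaving out each replicate and 0.040 to 0.097 leaving out each array. The CDK1 difference, -0.00013 on all arrays, ran from -0.11 to 0.15 leaving out each replicate, with 0.15 and a call without replicate 3, and the cause was not tested. No alternative that was run called a member in the test of the difference between the KDs. The share of all clusters called there ran from 0.0205% (sequence 2 alone) and 0.799% (sequences averaged) to 6.6% (without the 2 arrays that stood apart). Of 670 values of the 23 named members under alternatives, 583 kept their call or moved by less than the spread between replicates. A further 66 lost a call, 9 gained one and 11 moved further. The remaining 1, that of CDK1 without replicate 3, went from no measurable difference (-0.00013) to a called rise (0.15). All 66 lost calls were values of the 6 members called after p52/RelB KD, the only values with a call to lose. Most of the 670 values had no call, so the 583 do not measure how stable the calls were. Uncalled values changed sign 27 times, in 12 members. Leaving out each array, and also testing clusters with several symbols, were chosen after seeing the data. The latter called 6 members after p52/RelB KD, beside 10% of all clusters.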
